A study of Caenorhabditis elegans with 6 samples.

Results

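The UDP-glucuronosyltransferase genes of Caenorhabditis elegans carry symbols that join ugt- to a number. All protein-coding rows of the deposited expression table with such a symbol were taken, which gave 67 of 45343 features. UDP-glucuronosyltransferases sit in the membrane of the endoplasmic reticulum and join a sugar, taken from a UDP-sugar, to small fat-soluble molecules such as drugs, plant toxins and the animal's own lipids. The sugar makes these molecules more soluble in water and easier to export, and this is one of the classical conjugation steps of detoxification, after oxidation by cytochrome P450 enzymes. In nematodes these enzymes are known to transfer glucose in many cases, and the natural substrates of most members of the worm family are not known.

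The series measured messenger RNA by sequencing of whole larvae midway through the third larval stage (L3). The groups were 3 libraries of blmp-1(tm548) animals and 3 libraries of wild type (WT, the N2 Bristol strain), and no treatment other than the bleaching that synchronises a culture was named. The protein BLMP-1 is a DNA-binding zinc-finger protein and the counterpart of mammalian Blimp-1. Biological replicates are what the labels call the libraries, with no word on separate cultures, so the p-values measure only the spread between these libraries.

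Expression was given in FPKM, the fragments mapped to a transcript, scaled to its length and to the library's mapped fragments, a level that can be compared between genes. The steps between the lowest values gave an estimated depth of 7440000 to 8000000 reads per library. By this estimate 1 FPKM on 1 kb of transcript stood for 7.44 to 8.0 reads. The range is that between libraries and leaves out the error of the estimate. blmp-1 itself had 40.3, 36.9 and 38.0 FPKM in blmp-1(tm548) libraries, against 64.9, 71.1 and 75.2 FPKM in WT libraries (log2 difference -0.86, SE 0.0715, limma adjusted p = 0.00299). The transcript was thus lower in each mutant library than in any WT library, and it was not absent. Abundant genes of other families lay in a narrow band, with means over the 6 libraries of 196 FPKM for unc-54, 208 FPKM for act-1, 221 FPKM for eef-1A.1 and 233 FPKM for rpl-3. Whether differences between high values are compressed in this table was not tested, and the ugt genes with the highest levels come near this band.

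In each library 66 or 67 of the 67 ugt genes were above 0 FPKM, and their levels differed widely. There were 17 members with a mean of at least 50 FPKM over the 6 libraries, 26 between 10 and 50 FPKM, 18 between 1 and 10 FPKM and 6 below 1 FPKM. The most abundant member was ugt-62, with 154.6, 163.6 and 158.8 FPKM in blmp-1(tm548) libraries and 116.0, 119.5 and 114.4 FPKM in WT libraries. It was followed by ugt-22, a member known to modify how well benzimidazole drugs act on the worm. ugt-22 had 113, 112 and 112 FPKM in blmp-1(tm548) libraries and 127, 130 and 121 FPKM in WT libraries. The next in order were ugt-50, ugt-58, ugt-46, ugt-12, ugt-16, ugt-23, ugt-48 and ugt-25. Neighbours in this order lay close together and were often within their spread: ugt-50 averaged 99.9 ± 2.75 FPKM in mutant and 84.5 ± 8.03 FPKM in WT libraries, and ugt-58 averaged 89.0 ± 6.3 FPKM in mutant and 86.9 ± 2.72 FPKM in WT libraries (SD, n = 3 each). Further down the order, ugt-12 averaged 68.5 ± 6.75 FPKM in mutant and 81.2 ± 8.69 FPKM in WT libraries, ugt-48 63.1 ± 3.23 and 73.1 ± 2.46 FPKM in mutant and WT libraries, and ugt-25 59.1 ± 6.3 and 71.6 ± 6.77 FPKM in mutant and WT libraries. None of these 3 was called. The 10 most abundant members held 39.9% to 44.7% of the family's summed FPKM in a library.

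**Figure D1:**
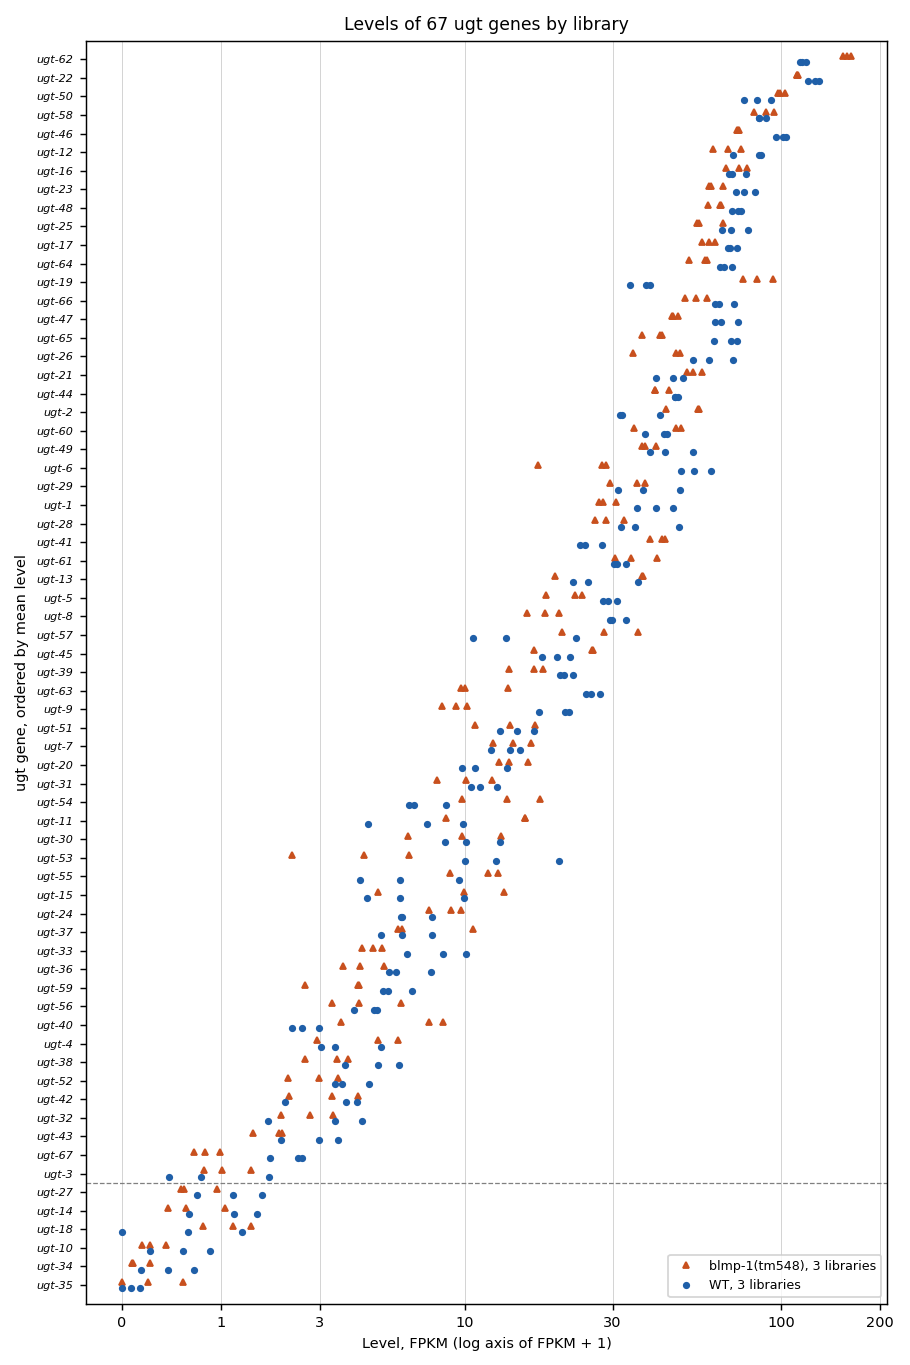
Level of each ugt gene in FPKM on a log axis, spaced by FPKM + 1, with genes ordered by mean level and a point per library, blmp-1(tm548) as red triangles and WT as blue circles. ugt-62 stands highest, and the 6 genes under the dashed line have means below 1 FPKM.

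The summed level of the family overlapped between genotypes. The 67 members summed to 2071, 2081 and 1880 FPKM in blmp-1(tm548) libraries, against 2262, 2120 and 2041 FPKM in WT libraries. The ratio of the means, mutant over WT, was 0.939. These sums were 0.242%, 0.237% and 0.213% of all FPKM in mutant libraries, against 0.258%, 0.238% and 0.222% in WT libraries. The spread between libraries of 1 genotype was thus as wide as the gap between genotypes.

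The comparison of blmp-1(tm548) with WT asks which transcripts differ when blmp-1 is mutated. Each feature with a mean of at least 1 FPKM was fitted with limma on log2(FPKM + 1), a scale that understates the change of low genes, and called at a Benjamini-Hochberg adjusted p under 0.05 over all 17058 features tested. Of the 67 ugt genes, 61 were tested and 6 were too low (ugt-10, ugt-14, ugt-18, ugt-27, ugt-34 and ugt-35). In the mutant 3 ugt genes rose, which is 4.92% of those tested, beside 3.34% of all features. In the mutant 8 ugt genes fell, which is 13.1% of those tested, beside 3.06% of all features. Among protein-coding features alone, 3.28% rose and 3.03% fell. The other 50 members were not called. In whole animals, fewer cells of a type and less RNA per cell cannot be told apart.

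The family as a whole leaned below 0. The log2 difference was negative for 37 members and positive for 24, so that 39.3% were positive, beside 50.2% of all features. The median over the 61 members was -0.17, beside 0.00 over all features. The members also lay further from 0 in either direction, with a median absolute log2 difference of 0.34 beside 0.15 over all features. Each mutant library was below each WT library for 23 members, or 37.7%, beside 15% of all features. Each mutant library was above each WT library for 8 members, or 13.1%, beside 13.7% of all features. Over protein-coding features these shares were 16% below, 14% above and 50% with a positive difference. An unadjusted limma p under 0.05 was reached by 34 members, or 55.7%, beside 23% of all features and 23.5% of protein-coding ones. Some of these traits were also seen in related families. Cytochrome P450 genes had the same median absolute log2 difference, 0.34, and 45.9% had an unadjusted limma p under 0.05. They did not lean below 0, with 52.5% positive. Of other glycosyltransferases of proteins and lipids, 32% were positive, and for 30% each mutant library was below each WT library.

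**Figure D2:**
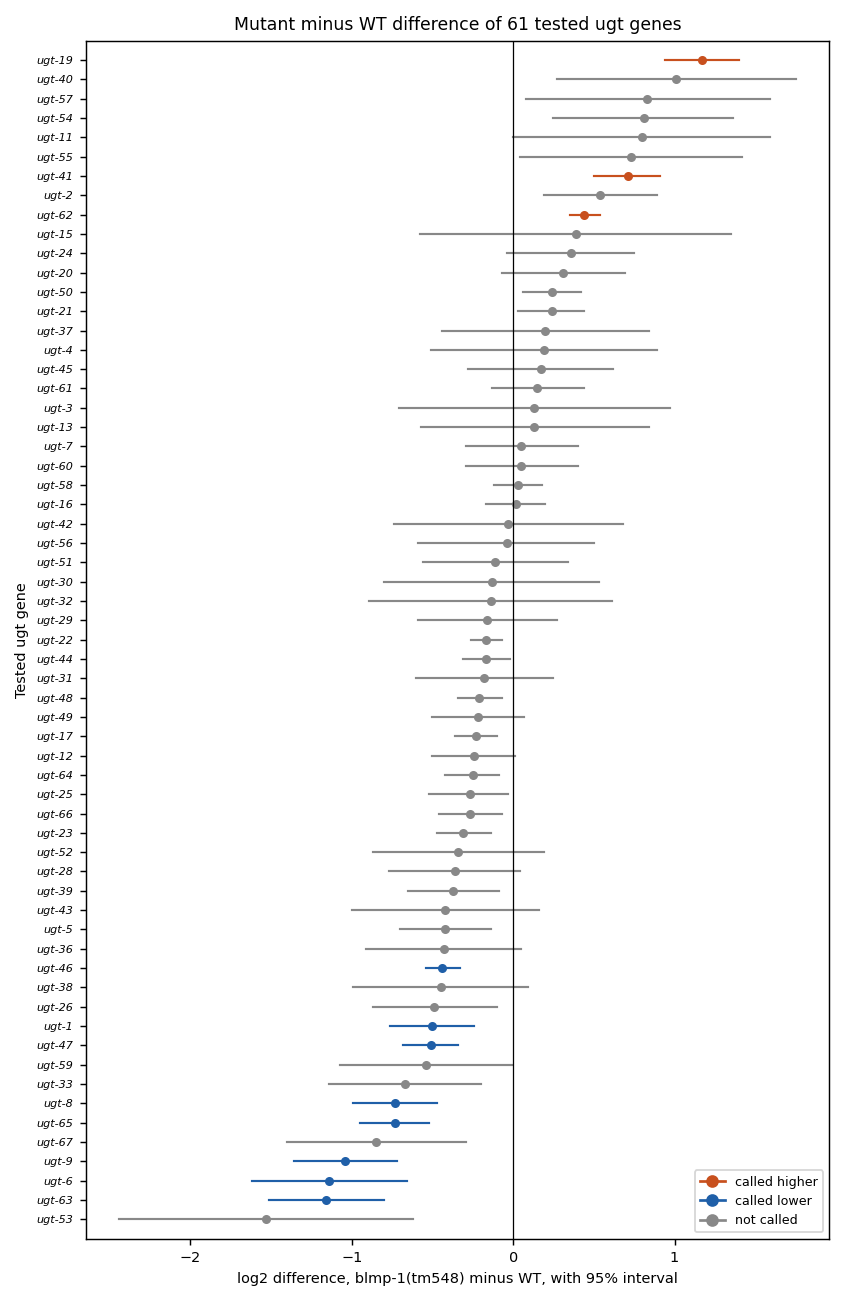
log2 difference of each tested ugt gene, blmp-1(tm548) minus WT, on the log2(FPKM + 1) scale, with its 95% interval from limma, ordered by value. The 3 called higher and 8 called lower are coloured, and the values run between -1.53 and 1.17.

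Among the 3 that rose, ugt-19 (K08B4.3, chromosome IV) had the largest difference. It had 84.5, 94.1 and 76.1 FPKM in blmp-1(tm548) libraries, against 39.3, 34.1 and 38.2 FPKM in WT libraries. The groups were far apart, and by mean level ugt-19 ranked 5 of the family in the mutant and 25 in WT. The log2 difference was 1.17 (SE 0.0952, limma adjusted p = 0.00275), a 2.24-fold higher level. The call was kept under each of 17 other settings, which included leaving out each library in turn.

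ugt-62 (M88.1, chromosome III), the most abundant member, was 1.36-fold higher in the mutant, with the values given above. Its log2 difference was 0.44 (SE 0.0393, limma adjusted p = 0.00368), and this call was also kept under all 17 settings. ugt-41 (F10D2.11, chromosome V) had 42.8, 39.3 and 43.7 FPKM in blmp-1(tm548) libraries, against 27.9, 24.5 and 23.7 FPKM in WT libraries. Here too no mutant library reached down to a WT library. The log2 difference of ugt-41 was 0.71 (SE 0.0858, limma adjusted p = 0.00948), a 1.63-fold higher level. The ugt-41 call was lost without WT replicate 2 (limma adjusted p = 0.0511) and without replicate 1 of both groups (limma adjusted p = 0.0599).

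Of the 8 that fell, ugt-63, ugt-6 and ugt-9 had the largest differences, and all of them are on chromosome V. ugt-63 (C04F5.7) had 9.76, 13.9 and 10 FPKM in blmp-1(tm548) libraries, against 24.8, 25.7 and 27.4 FPKM in WT libraries (log2 difference -1.16, SE 0.147, limma adjusted p = 0.011). ugt-6 (ZC455.4) had 28.6, 17.4 and 27.8 FPKM in blmp-1(tm548) libraries, against 60.9, 53.8 and 48.9 FPKM in WT libraries (log2 difference -1.14, SE 0.199, limma adjusted p = 0.0274). The mutant values of ugt-6 were uneven, with replicate 2 well below the other mutant libraries. ugt-9 (T19H12.1) had 10.2, 9.39 and 8.37 FPKM in blmp-1(tm548) libraries, against 21.9, 21.3 and 17.5 FPKM in WT libraries (log2 difference -1.04, SE 0.131, limma adjusted p = 0.0107). For none of these genes did the groups overlap. Without WT replicate 2 none of them was called (limma adjusted p = 0.0563 for ugt-63, 0.109 for ugt-6 and 0.0593 for ugt-9). The same held without replicate 1 of both groups, with limma adjusted p of 0.102, 0.139 and 0.0941 for ugt-63, ugt-6 and ugt-9. The ugt-6 call was also lost without mutant replicate 1, WT replicate 1 or WT replicate 3, with limma adjusted p of 0.0581, 0.0733 and 0.0568.

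ugt-65 and ugt-8 had the same fitted difference, and their calls were not equally firm. ugt-65 (F08G5.5, chromosome IV) had 42.9, 42.2 and 37.1 FPKM in blmp-1(tm548) libraries, against 61.9, 73.2 and 70.1 FPKM in WT libraries. Its log2 difference was -0.73 (SE 0.0881, limma adjusted p = 0.00907), and the call was kept under all 17 settings. ugt-8 (H23N18.3, chromosome V) had 18.3, 20.3 and 16 FPKM in blmp-1(tm548) libraries, against 29.5, 29.8 and 33.1 FPKM in WT libraries. The groups stood apart for both genes. The log2 difference of ugt-8 was -0.73 (SE 0.107, limma adjusted p = 0.0167). Of the fits that left libraries out, the ugt-8 call was lost without mutant replicate 1, WT replicate 2 or WT replicate 3 (limma adjusted p = 0.0667, 0.0735 and 0.0512), and without replicate 1 of both groups (limma adjusted p = 0.136).

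The remaining 3 that fell did so by less. ugt-47 (R04B5.9, chromosome V) had 48, 46 and 46.4 FPKM in blmp-1(tm548) libraries, against 73.8, 65.4 and 62.7 FPKM in WT libraries (log2 difference -0.51, SE 0.0708, limma adjusted p = 0.0138). Its call was lost without mutant replicate 1, mutant replicate 2 or WT replicate 2 (limma adjusted p = 0.0546, 0.0612 and 0.0606), and without replicate 1 of both groups (limma adjusted p = 0.0651). ugt-46 (B0310.5, chromosome X) had 73.4, 73.3 and 74.3 FPKM in blmp-1(tm548) libraries, against 103, 101 and 96.1 FPKM in WT libraries. The mutant libraries of ugt-46 were nearly equal, and the gap to WT was larger than the spread within either group. Its log2 difference was -0.44 (SE 0.0432, limma adjusted p = 0.005), and the call was lost only without replicate 1 of both groups (limma adjusted p = 0.065) among the 17 settings. ugt-1 (AC3.7, chromosome V) was the weakest call of the family. It had 30.7, 28 and 27.2 FPKM in blmp-1(tm548) libraries, against 46.5, 41.1 and 35.9 FPKM in WT libraries (log2 difference -0.50, SE 0.107, limma adjusted p = 0.0487). The ugt-1 call was kept in 7 of 17 settings, and leaving out any library other than WT replicate 3 ended it, with limma adjusted p between 0.0837 and 0.172. Fitting with no level filter, quantile normalization, median-ratio scaling or no trend in the prior variance ended it as well (limma adjusted p = 0.0613, 0.053, 0.0558 and 0.0737).

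**Figure D3:**
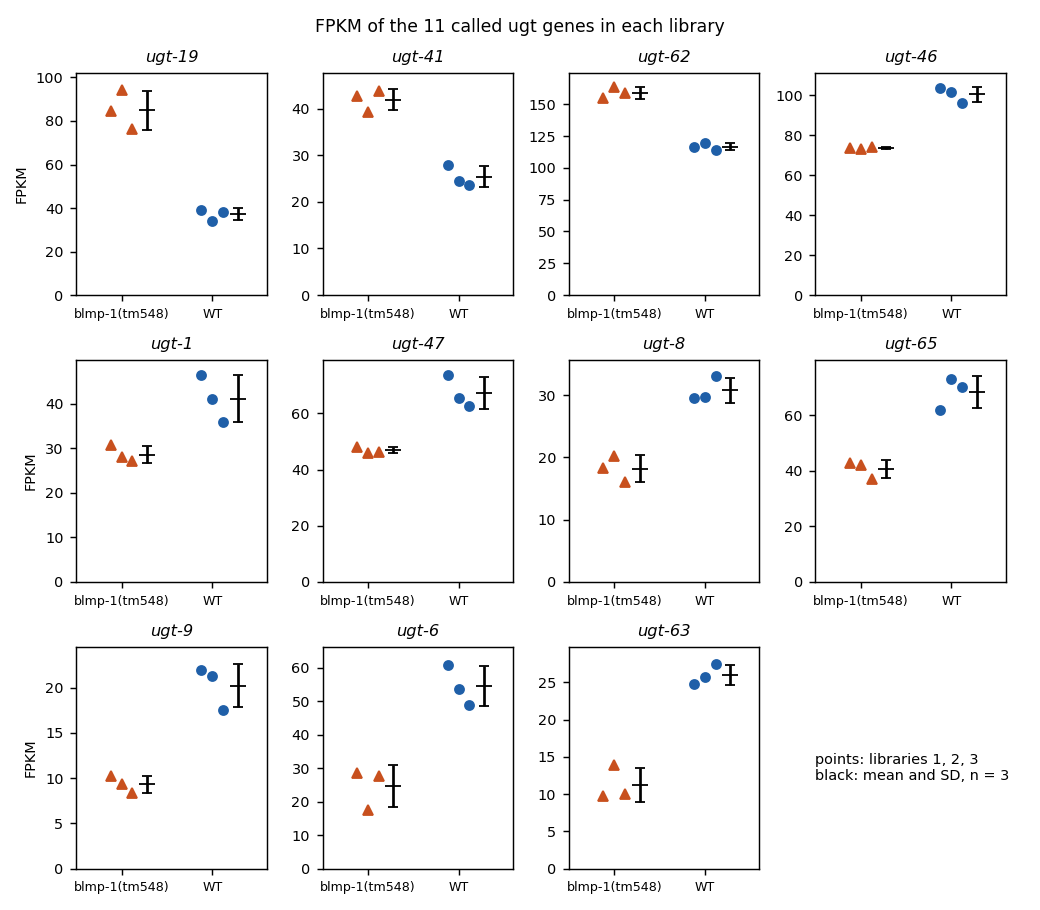
FPKM of the 11 called ugt genes, with a point per library, and the mean and SD of 3 libraries in black, blmp-1(tm548) left of WT in each panel. In no panel do the points of the groups overlap.

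Fewer or more members were called when a library was left out, and so were fewer or more of all features. Without mutant replicate 3 there were 5 that rose, the added ones being ugt-40 and ugt-54. Without WT replicate 2 there were 2 that rose and 2 that fell, and without mutant replicate 1 there were 4 that fell. Over all features, 192 were called higher and 177 lower without WT replicate 2, and 237 higher and 179 lower without mutant replicate 1, against 570 and 522 with all libraries. The log2 differences of the widest members lost without WT replicate 2 moved little: they were -1.16 for ugt-63, -1.15 for ugt-6 and -1.0 for ugt-9. Some other lost calls came with larger moves. ugt-6 went from -1.14 to -1.26 without mutant replicate 1, and ugt-1 from -0.50 to -0.41 without WT replicate 1. The summed level of the 8 called lower was 262, 250 and 247 FPKM in blmp-1(tm548) libraries, against 423, 412 and 392 FPKM in WT libraries. The summed level of the 3 called higher was 282, 297 and 279 FPKM in blmp-1(tm548) libraries, against 183, 178 and 176 FPKM in WT libraries. Since calls chose these genes, the sums only describe how much RNA is at stake in each direction.

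Some differences as large as those of called genes did not pass the threshold. ugt-53 had the widest difference of the family, with 6.46, 4.45 and 2.29 FPKM in blmp-1(tm548) libraries, against 20.3, 12.7 and 10 FPKM in WT libraries (log2 difference -1.53, limma adjusted p = 0.0705). The ugt-53 groups did not overlap, but both were scattered, and over protein-coding features only it was called (limma adjusted p = 0.0476). ugt-40 had 7.56, 8.49 and 3.63 FPKM in blmp-1(tm548) libraries, against 2.52, 2.98 and 2.29 FPKM in WT libraries (log2 difference 1.01, limma adjusted p = 0.117). Mutant replicate 3 was low for ugt-40, and without that library the log2 difference was 1.33 (limma adjusted p = 0.022). ugt-54 was alike in this, with a log2 difference of 0.81 (limma adjusted p = 0.1) that reached a limma adjusted p of 0.0441 without mutant replicate 3. ugt-67, ugt-57, ugt-11, ugt-55 and ugt-33 complete the 8 widest, with log2 differences of -0.85, 0.83, 0.80, 0.73 and -0.67. Their limma adjusted p was 0.0901, 0.184, 0.217, 0.201 and 0.106. ugt-67 was called over protein-coding features only and without a trend in the prior variance (limma adjusted p = 0.0476 and 0.0258). The groups overlapped for ugt-57, ugt-11 and ugt-55, and stood apart for ugt-67 and ugt-33. ugt-57 had 28.2, 36.0 and 20.7 FPKM in blmp-1(tm548) libraries, against 10.7, 13.7 and 23 FPKM in WT libraries. WT replicate 3 of ugt-57 was above the lowest mutant library, and the other WT libraries were not. ugt-67 had 0.984, 0.655 and 0.785 FPKM in blmp-1(tm548) libraries, against 2.43, 2.52 and 1.82 FPKM in WT libraries. ugt-33 had 5.16, 4.8 and 4.36 FPKM in blmp-1(tm548) libraries, against 10.1, 8.46 and 6.34 FPKM in WT libraries. ugt-11 averaged 13.4 ± 4.1 FPKM in mutant and 7.33 ± 2.67 FPKM in WT libraries, and ugt-55 11.3 ± 2.08 FPKM in mutant and 6.62 ± 2.7 FPKM in WT libraries (SD, n = 3 each).

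Missing the threshold did not mean that a level was shown to be equal. Of the 50 members that were not called, 18 had a 95% interval inside a 1.5-fold change either way, and 10 had an interval that reached a 2-fold change. Among the abundant ones, ugt-22 differed by -0.17 on the log2 scale (limma adjusted p = 0.0667), and ugt-23 by -0.31 (limma adjusted p = 0.0532). ugt-23 was called with a minimum mean of 5 FPKM (limma adjusted p = 0.0475) and over protein-coding features only (limma adjusted p = 0.0405). ugt-16 and ugt-58 were nearly level, with log2 differences of 0.02 and 0.03 whose sign turned when some libraries were left out. None of the 18 members with means from 1 to 10 FPKM was called, where 2.24% of protein-coding features at that level rose and 1.86% fell. Of the 26 members from 10 to 50 FPKM 1 rose and 5 fell, where 3.92% of protein-coding features rose and 3.39% fell. Of the 17 members from 50 FPKM 2 rose and 3 fell, and of all features from 50 FPKM 3.3% rose and 3.43% fell.

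The other 30 tested members, with means of 2.35 to 65.1 FPKM over the 6 libraries, were not called and had log2 differences between -0.54 (ugt-59) and 0.39 (ugt-15). Of these, 21 were negative and 9 positive. Each mutant library was below each WT library for 9 of them (ugt-5, ugt-17, ugt-26, ugt-36, ugt-39, ugt-44, ugt-59, ugt-64 and ugt-66) and above for 1 (ugt-21), and the groups overlapped for 20. The 20 were ugt-7, ugt-13, ugt-15, ugt-24, ugt-28, ugt-29, ugt-30, ugt-31, ugt-32, ugt-37, ugt-38, ugt-42, ugt-43, ugt-45, ugt-49, ugt-51, ugt-52, ugt-56, ugt-60 and ugt-61. Over all features, called ones included, each mutant library was below each WT library for 15% and above for 13.7%.

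Libraries of 1 genotype differed together over the family. Of the 61 tested members, 41 were lowest among the mutant libraries in replicate 3, or 67.2%, beside 37.0% of all features. WT replicate 1 was the highest WT library for 40 members, or 65.6%, beside 35.3% of all features. These libraries therefore hold the low end of the mutant group and the high end of the WT group for most of the family. At the other ends, mutant replicate 1 was the highest mutant library for 28 members, or 45.9%, beside 28.8% of all features. WT replicate 3 was the lowest WT library for 33 members, or 54.1%, beside 34.3% of all features. In both genotypes replicate 1 was thus most often the highest library and replicate 3 most often the lowest. The reason was not tested. Without mutant replicate 3 the median log2 difference of the tested members was -0.15, and without WT replicate 1 it was -0.10. The median coefficient of variation over members was 13.8% in mutant and 11.7% in WT libraries.

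**Figure D4:**
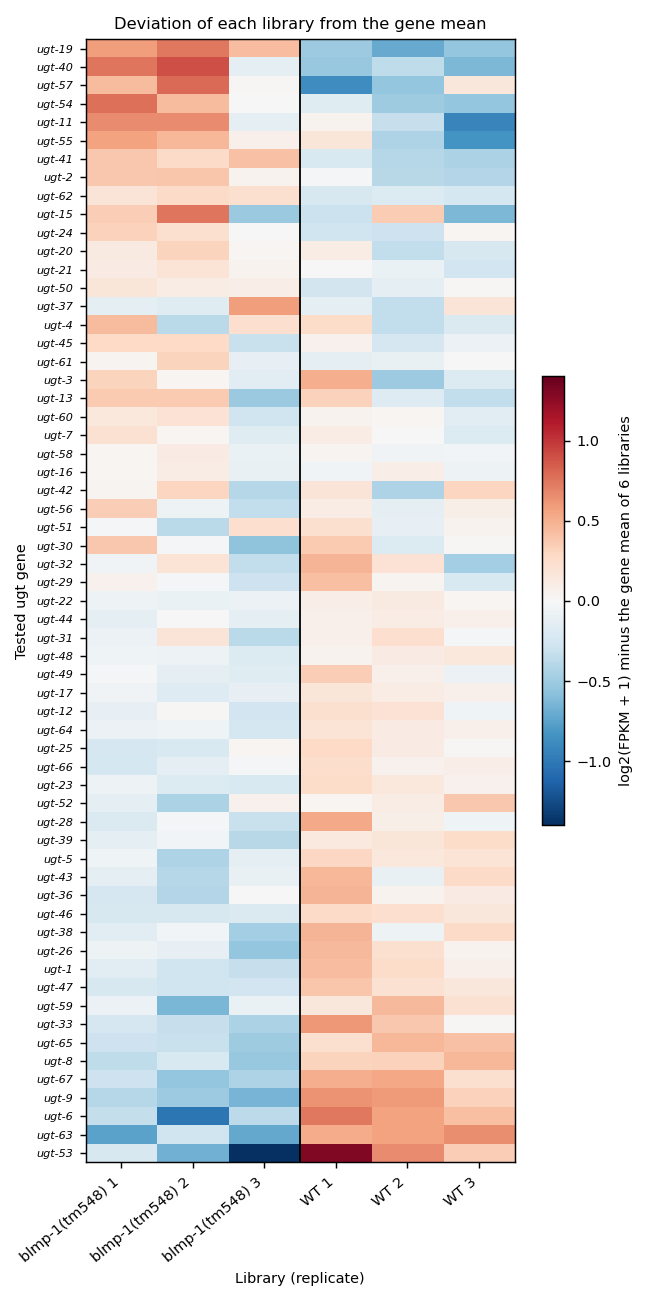
Deviation of each library from the gene mean on the log2(FPKM + 1) scale for the 61 tested ugt genes, ordered by their mutant minus WT difference. blmp-1(tm548) libraries stand left of the line and WT libraries right of it, and mutant replicate 3 is the lowest mutant library for 41 of the genes.

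Most ugt genes lie on chromosome V. It holds 42 of the 67, and of 37 tested there 1 rose (2.7%) and 6 fell (16.2%). Over all features 3.34% rose and 3.06% fell. Chromosome IV holds 12, of which 1 rose (8.33%) and 1 fell (8.33%). Chromosome I holds 5, and the 4 tested all had negative values, none of them called. Chromosome X holds 4, chromosome III 3 and chromosome II 1, with 1 that fell on X and 1 that rose on III. These chromosomes hold too few members for a share to be read. In 10 places 2 or more ugt genes follow each other with no other protein-coding gene between them, which takes in 31 members, and the longest such run holds 7. Of the called genes, 5 are in runs and 6 are outside them.

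Each called gene in a run lay beside genes that were not called. Among 13 adjacent pairs with both genes tested, 6 had the same sign, but many of these values were near 0, such as -0.04 for ugt-56, and in none were both called. ugt-1, which fell, lies beside ugt-2, which had 55.4, 55.7 and 44.0 FPKM in blmp-1(tm548) libraries, against 42.1, 32.2 and 31.7 FPKM in WT libraries (log2 difference 0.54, limma adjusted p = 0.0866, and 0.0456 without WT replicate 1). The ratio of ugt-2 to ugt-1 was 1.8, 1.99 and 1.62 in mutant libraries, against 0.907, 0.783 and 0.882 in WT libraries. The order of this pair was thus turned round in every library of the mutant. ugt-9 lies beside ugt-11 on the opposite strand, and their ratio was 0.649, 0.596 and 0.966 in mutant libraries, against 2.21, 2.86 and 3.81 in WT libraries. ugt-19 lies beside ugt-20, which averaged 14.4 ± 1.59 FPKM in mutant and 11.5 ± 2.1 FPKM in WT libraries (SD, n = 3 each). The ratio of ugt-19 to ugt-20 was 6.04, 5.83 and 5.84 in mutant libraries, against 2.84, 3.47 and 3.54 in WT libraries. ugt-6 lies between ugt-4 and ugt-3, which were much lower, at means of 4.61 and 1.08 FPKM in mutant and 3.86 and 0.974 FPKM in WT libraries. ugt-8 lies between ugt-67 and the untested ugt-14. These ratios were picked after their values were seen and carry no test. Members of a gene family can be alike in sequence, and how reads that match more than 1 copy were shared out is not given in the sources used here, so levels of single copies are uncertain to that extent. ugt-40 and ugt-37 overlap on the same strand, which adds to this for both.

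**Figure D5:**
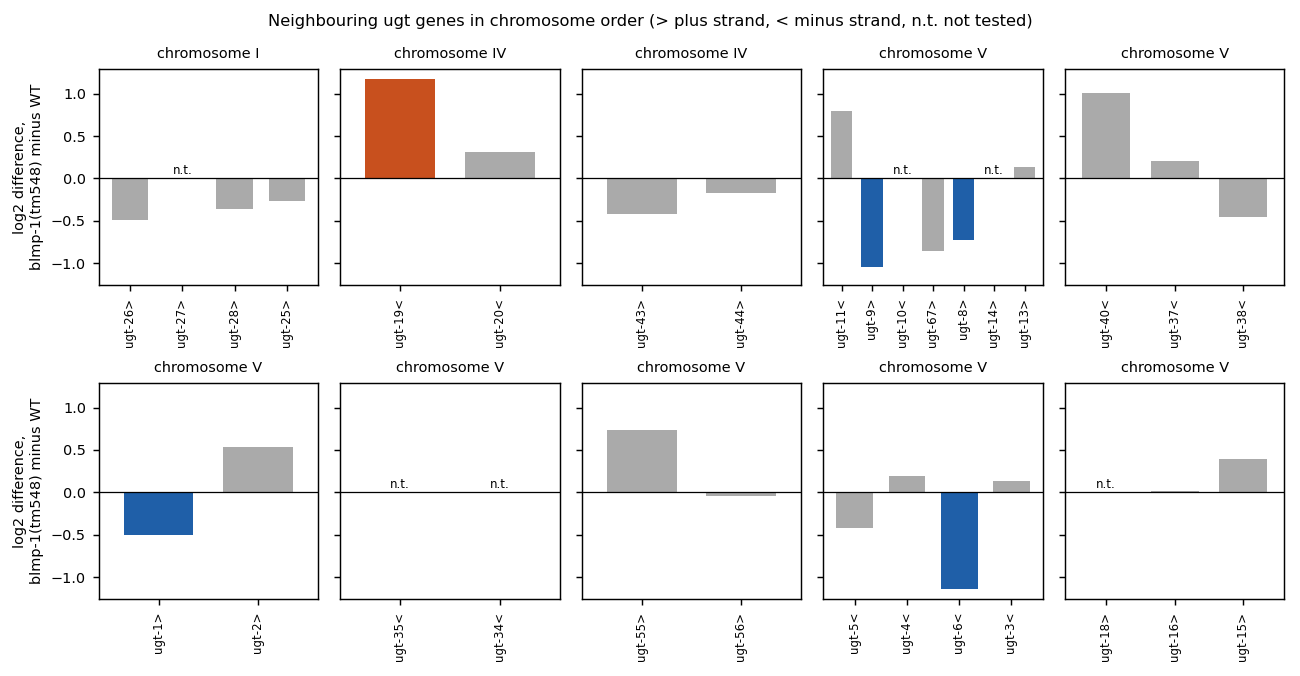
log2 difference, blmp-1(tm548) minus WT, of neighbouring ugt genes in chromosome order, a panel per run, with called genes in colour and genes below the level filter marked n.t. The called genes stand among uncalled neighbours in each run that holds one.

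The 6 untested members were near the floor of the method. In 3 of them the values fell on steps of whole reads within 1%. ugt-10 stood at 3, 5 and 2 reads in blmp-1(tm548) libraries, against 12, 7 and 3 reads in WT libraries. ugt-34 stood at 3, 1 and 1 reads in mutant libraries, against 2, 5 and 9 reads in WT libraries. ugt-35 stood at 8, 3 and 0 reads in mutant libraries, against 2, 0 and 1 reads in WT libraries. Differences of this size were not detectable at this depth. ugt-14, ugt-18 and ugt-27 averaged 0.668, 1.14 and 0.667 FPKM in mutant libraries, against 1.12, 0.637 and 1.18 FPKM in WT libraries.

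Of 4 genes that make or move the sugar donors, 2 fell (50%, beside 3.06% of all features) and none rose (beside 3.34%). A list of 4 is too short for this share to be read. sqv-4, the UDP-glucose dehydrogenase that makes UDP-glucuronic acid, had 80.0, 83.8 and 77.1 FPKM in blmp-1(tm548) libraries, against 92.5, 95.5 and 96.1 FPKM in WT libraries (log2 difference -0.24, limma adjusted p = 0.0383). sqv-7, a transporter that carries UDP-sugars into the Golgi, had 46, 47.8 and 48.6 FPKM in blmp-1(tm548) libraries, against 59.3, 63.0 and 58.4 FPKM in WT libraries (log2 difference -0.34, limma adjusted p = 0.0202). Both are small differences between groups that did not overlap. Leaving out any single library ended the sqv-4 call (limma adjusted p 0.0598 to 0.157), and the sqv-7 call was lost without mutant replicate 1, mutant replicate 2 or WT replicate 2 (limma adjusted p = 0.0869, 0.077 and 0.0925). gale-1, the UDP-galactose epimerase, and sqv-1, which converts UDP-glucuronic acid, differed by -0.03 and -0.05 and were not called.

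Other detoxification families were also mixed in direction. Their counts stand beside 3.34% higher and 3.06% lower over all features. Of 61 tested cytochrome P450 genes, 8 rose (13.1%) and 4 fell (6.56%), with a median log2 difference of 0.06. The widest called ones were cyp-13A8, cyp-14A4 and cyp-33C8, all higher in the mutant, at 2.20, 2.14 and 1.84. Each of these calls was kept whichever library was left out. Of 45 tested glutathione transferase genes, 1 rose (2.22%) and 3 fell (6.67%), with a median of -0.04. The widest called ones were gst-38 at 1.14, gst-10 at -0.60 and gst-13 at -0.31, while the lowest uncalled value was -0.75. The gst-13 call was lost without mutant replicate 1 or 2 or WT replicate 1 or 2 (limma adjusted p up to 0.109). Of 29 tested ABC transporter genes, which include exporters of conjugated drugs, 4 rose (13.8%) and none fell, with a median of -0.07. Of the called genes, pgp-9, haf-6 and pgp-14 differed most, at 1.33, 1.06 and 0.38, while the lowest value of the uncalled ones was -0.54. The haf-6 call was lost without WT replicate 2 (limma adjusted p = 0.0626), and the pgp-14 call was lost whichever library other than WT replicate 1 was left out (limma adjusted p up to 0.134). Of 30 short-chain dehydrogenase genes, 2 rose (6.67%) and 2 fell (6.67%), with a median of -0.04. Among the called ones, dhs-30 differed by -1.09, dhs-19 by 0.34 and dhs-3 by -0.26, while the highest uncalled value was 1.34. The dhs-19 call was lost without mutant replicate 1 or 2 or WT replicate 2 or 3 (limma adjusted p up to 0.111). The dhs-3 call was lost without mutant replicate 1 or 2 or WT replicate 1 or 2 (limma adjusted p up to 0.121). The sulfotransferase ssu-1, an enzyme of another conjugation route, differed by 0.34 and was not called (limma adjusted p = 0.302). Among 50 tested glycosyltransferases and related genes of proteins and lipids, which include sqv-4 and sqv-7, 1 rose (cgt-1, a ceramide glucosyltransferase, at 0.57) and 2 fell (sqv-4 and sqv-7), with a median of -0.10.

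Regulators of drug and stress responses were mostly not called. Of 21 tested, 2 rose (9.52%, beside 3.34% of all features) and none fell (beside 3.06%), with a median log2 difference of 0.07. They leaned above 0, with 18 positive (85.7%, beside 50.2% of all features) and 3 negative. In 8 of them (38.1%, beside 13.7%) each mutant library was above each WT library, and in 1 (4.76%, beside 15%) below. cebp-1, a bZIP transcription factor, had 79.2, 77.6 and 90.1 FPKM in blmp-1(tm548) libraries, against 50.4, 52.3 and 50.6 FPKM in WT libraries (log2 difference 0.67, limma adjusted p = 0.00528). pqm-1, a zinc-finger stress regulator, differed by 0.45 (limma adjusted p = 0.0154), a call lost without mutant replicate 1, mutant replicate 2 or WT replicate 2 (limma adjusted p = 0.0619, 0.0574 and 0.0752). skn-1, the Nrf-type regulator of conjugation enzymes, and nhr-8, a nuclear receptor linked to drug resistance, differed by 0.03 and -0.16 and were not called.

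Tissue and stage markers were set beside these values. Over 9 lists with 63 distinct markers, 2 rose and 3 fell, and none was at 0 in every library. Over all features 3.34% rose and 3.06% fell, and the single lists are too short for a share of calls to be read. Markers of the intestine, a main site of detoxification in the worm, summed to 1370 to 1439 FPKM in blmp-1(tm548) libraries and 1455 to 1731 FPKM in WT libraries, and 1 of 12 was called (mtl-2, lower). Without mtl-2 and the yolk genes vit-2 and vit-6, which are also in the yolk list, the other 9 summed to 1190 to 1243 FPKM in mutant and 1188 to 1277 FPKM in WT libraries, which overlap. The genes left out were the most negative of the 12, at -0.63, -0.72 and -1.14, and were chosen after values were seen. This overlap is thus no test of intestine content. Epidermis markers summed to 917 to 992 FPKM in mutant and 908 to 979 FPKM in WT libraries, and 1 of 10 was called (che-14, lower). Excretory cell markers summed to 324 to 360 FPKM in mutant and 265 to 302 FPKM in WT libraries, and 1 of 4 was called (aqp-8, higher). The log2 difference of aqp-8 was 0.85, while exc-5, vha-5 and exc-4 differed by 0.11, 0.10 and -0.05. Pharynx markers summed to 584 to 672 FPKM in mutant and 513 to 564 FPKM in WT libraries, and 1 of 6 was called (marg-1, higher). Yolk genes, which switch on late in larval life, summed to 156, 72.2 and 122 FPKM in mutant libraries and 386, 532 and 124 FPKM in WT libraries, and none of 6 was called. All 6 were negative, with a median log2 difference of -1.86, the widest of the 9 lists. In 4 of them (66.7%, beside 15% of all features) each mutant library was below each WT library. These were vit-1, vit-3, vit-4 and vit-5, at log2 differences of -1.69, -2.25, -2.20 and -2.03, and vit-2 and vit-6 overlapped. Glia markers summed to 161 to 172 FPKM in mutant and 178 to 192 FPKM in WT libraries, and 1 of 5 was called (vap-1, lower). The marker calls of mtl-2, che-14, marg-1, vap-1 and aqp-8 were all lost without WT replicate 2 (limma adjusted p = 0.149, 0.0568, 0.116, 0.0739 and 0.131). Muscle, neuron and germline lists held no called marker. Some markers lay in the narrow band of abundant genes described above, such as unc-54 and act-5 at means of 196 and 202 FPKM. Since compression of such values was not tested, the sums and the lack of calls do not show that tissue content was equal. The part of tissue makeup and of developmental stage in the ugt differences was not tested.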

How the data were processed

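Libraries were made from RNA of bleach-synchronised mid-L3 larvae with an Illumina TruSeq kit, per the labels' protocols, and titles gave the groups. A single table of FPKM values, with a column for each library, was deposited by the authors. The submitters' processing notes name TopHat2 2.0.7, Cuffdiff and Cufflinks 2.0.2. Build, annotation and the handling of multiply mapped or duplicate reads: not given in the sources used here, and no coordinates are printed. Names, biotypes, chromosomes, strands and gene order came from WBcel235 tables, and 44880 of 45343 features matched.

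Count models do not suit FPKM and none was run. log2(FPKM + 1) was fitted with limma 3.58.1 in R 4.3.3 for features with a mean of at least 1 FPKM, with group as the only term, a prior variance that follows the level, and p-values adjusted by Benjamini-Hochberg. SE and intervals are limma's and cover these 6 libraries. Depth was estimated from genes whose low values were whole multiples of 1 step within 1%. Of 288 such genes, 114 were near the most common depth.

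Members and gene lists were chosen with earlier results of these data known, and lists are described by counts and medians only. Named with values were all called members, the 10 most abundant, the 8 widest uncalled, members beside a called gene in a run, and the 3 widest called genes per list, and the targeted gene. Neighbour ratios, the 4 abundant genes of other families and the intestine sum without 3 genes were added after values were seen. The 17 alternatives were other pseudocounts, filters, scalings, variance models and feature sets, a replicate block, and libraries left out.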

Additional observations from a re-analysis of the deposited data

How the results depend on the processing

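The 3 called higher and 8 called lower were 3 and 7 with no filter, 3 and 9 with a minimum mean of 5 FPKM, 3 and 11 over protein-coding features only (ugt-23, ugt-53 and ugt-67 added), and 3 and 7 with quantile normalization or median-ratio scaling. Pseudocounts of 0.1 and 0.5 FPKM and a prior variance without trend gave 3 and 8. With library weights 13 were called higher and 23 lower. This setting moved the counts over all features too, to 2005 higher and 2112 lower, against 570 and 522. Leaving out 1 library gave 2 to 5 called higher and 2 to 7 called lower, and leaving out replicate 1 of both groups gave 2 and 1. With fewer libraries the fits had fewer degrees of freedom, yet without mutant replicate 3 more of all features were called, 620 higher and 712 lower.

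Replicate numbers were not clearly shown to pair the libraries. The correlations of same-numbered deviations over all tested features were 0.133, -0.0352 and 0.0697 for numbers 1, 2 and 3. Only that of number 1 passed the threshold of 0.1 set for pairing, and differently numbered ones ran from -0.138 to 0.0565. Whether libraries with 1 number were handled together was not tested. With the replicate block 3 ugt genes were called higher and 10 lower. Under this block ugt-8 lost its call (limma adjusted p = 0.0519), and ugt-53, ugt-23 and ugt-26 gained one (limma adjusted p = 0.0249, 0.0375 and 0.043).

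ugt-19, ugt-62 and ugt-65 were called in each of the 17 alternatives. blmp-1 kept its call in all of them, at log2 differences from -0.95 to -0.81. Over the named ugt genes, 455 alternative values kept their direction and side of the threshold, 31 lost a call, 26 gained one and 8 changed sign. The sign changes were in genes near 0. They were ugt-3 (-0.02 with quantile normalization, -0.09 without WT replicate 2, from -0.09 to 0.24 over single libraries left out), ugt-16 (-0.03 with library weights, -0.03 without mutant replicate 2, -0.00 without WT replicate 1, -0.02 without WT replicate 3, up to 0.07 without mutant replicate 3, -0.01 without replicate 1 of both groups) and ugt-58 (-0.01 without mutant replicate 2, up to 0.09 without mutant replicate 3). The family median ran from -0.23 to -0.10. The cause of a changed call was not tested. At 7.44 to 8.0 reads per FPKM and kb, members below 1 FPKM rest on few reads: fitted with no filter, none of the 6 was called (lowest limma adjusted p = 0.372).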
